A study of Mus musculus with 4 samples.

Results

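Cytochrome P450 genes were followed in an array comparison of genomic DNA from mouse liver cells. The members are the autosomal genes whose name on the array begins with Cyp and a digit, which gave 73 genes with 134 probes, of 20445 autosomal genes measured. They belong to 37 subfamilies on 15 autosomes, and 4 of the names on the array mark pseudogenes. The 4 samples share the genotype TAK1LPC-KO_RIP3-_-, that is, liver parenchymal cells without TAK1 (LPC) in animals that also lack RIP3, per the series title, and no promoter, age, sex or treatment is given in the labels used here. DNA came from formalin-fixed, paraffin-embedded sections, was labelled with Cy5, and was set on each array against Cy3-labelled DNA of a pool of 4 normal livers. No other control was used, the genotype of the pool is not given, and dyes were not swapped. Every value is therefore a log2 ratio of Cy5 to Cy3 signal, sample over pool, and is not read here as a level of mRNA. A value of 0 is the median autosomal probe of the array.

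Cytochrome P450 enzymes are haem proteins that insert an oxygen atom into their substrates, using electrons passed on by a reductase or by a ferredoxin. Families 1 to 3 oxidise drugs, carcinogens and other foreign compounds and are abundant in hepatocytes, and family 4 hydroxylates fatty acids and eicosanoids. Other members carry out single steps in the synthesis or breakdown of bile acids, sterols, steroid hormones, vitamin D and retinoic acid, several of them in adrenal, gonad, kidney or brain rather than liver.

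In the sample channel 84.3% to 89.9% of an array's spots stood well above background, and in the pool channel 94.4% to 97.7% did. Pairs of arrays correlated at 0.614 to 0.702 over autosomal probes, as a description of arrays that share the pool. Over 2172 probes of the X chromosome the median was -0.86 ± 0.02 (SD, n = 4). Slide 1 held replicates 1 and 2, and slide 2 held replicates 3 and 4. Map3k7, which encodes TAK1, had 0.65 ± 0.13 (SD, n = 4, limma adjusted p = 0.00192), and Ripk3, which encodes RIP3, had -0.08 ± 0.06 (adjusted p = 0.370). With normexp background correction Map3k7 was 0.43. By the rule given below, Map3k7 was called higher than the pool, also with normexp correction, and Ripk3 was not called. Neither was called lower, and whether their probes lie in the deleted parts is not known here.

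The ratios were tested against 0 with limma over all 20445 genes, with Benjamini-Hochberg adjustment. A call needed a mean log2 ratio 0.25 or more from 0 together with an adjusted p below 0.05. The labels do not state separate animals, so the p-values reflect only how far these 4 samples differ, a spread that may be technical, and they leave out the spread between normal livers. For a single gene, the exact two-sided sign-flip permutation test cannot go below 0.125 with 4 arrays. Of the Cyp genes, 18 were called higher than the pool (24.7%) beside 16.1 percent of all genes, and 9 were called lower (12.3%) beside 19.3 percent of all genes. In either direction 27 of 73 were called (37.0%), beside 35.4 percent of all genes, so the total was close to the background at this size limit. The median Cyp gene lay at 0.09 and the median of all genes at -0.01. The quartiles of the Cyp genes were -0.12 and 0.27, and those of all genes -0.22 and 0.18. On all 4 arrays 29 Cyp genes lay above the pool (39.7%, beside 26.1% of all genes) and 14 lay below it (19.2%, beside 28.4%). A limit applies to these counts, because 8 of the 18 higher genes and 2 of the 9 lower ones rest on 1 probe, and that of Cyp17a1, among the higher, was dim in the sample channel on every array.

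**Figure D1:**
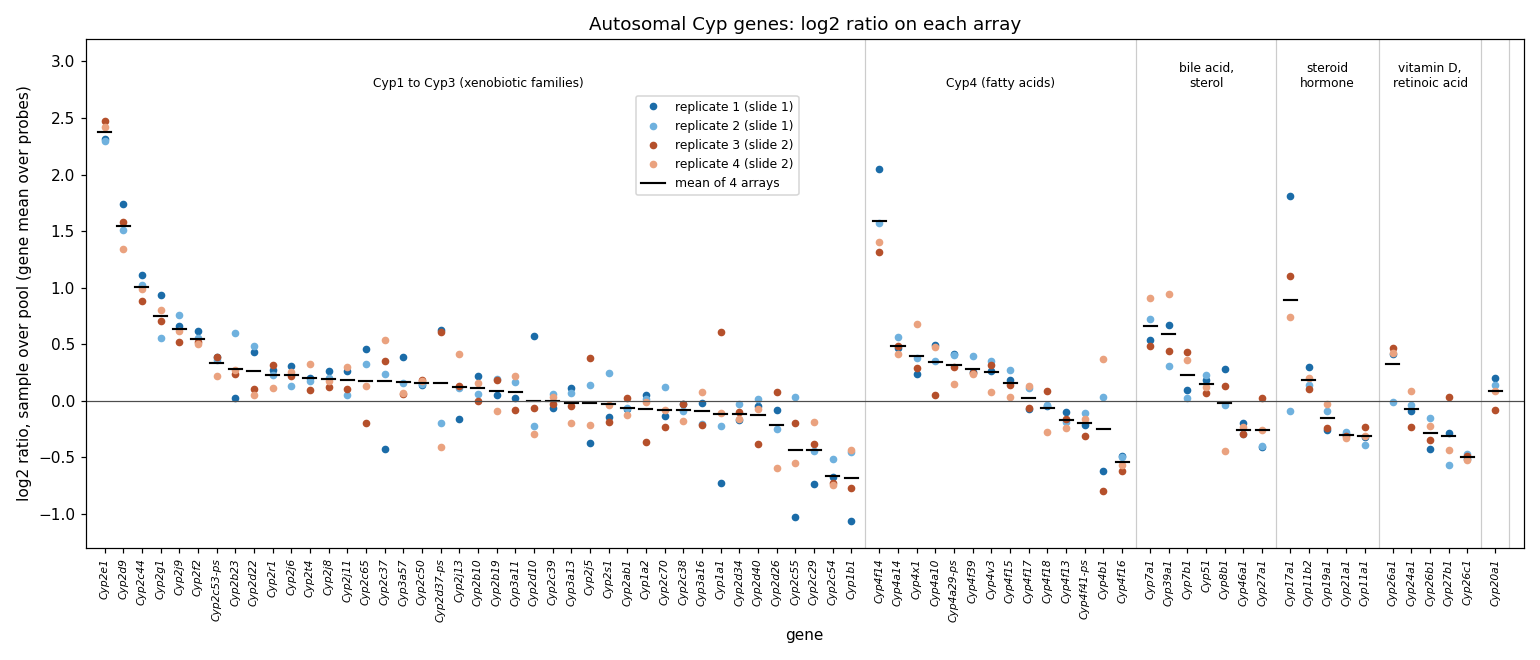
Log2 ratio of sample over pool for each of the 73 Cyp genes (x axis, grouped by role and ordered by mean), with 1 point for each of the 4 arrays and a bar for their mean. Cyp2e1, Cyp4f14, Cyp2d9 and Cyp2c44 stand at means of 1.00 to 2.38, and the quartiles of all 73 genes are -0.12 and 0.27.

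Cyp2e1, which oxidises ethanol, acetone and small solvents and is abundant around the central vein of the liver lobule, had the highest ratio of the family. Its log2 ratio was 2.31, 2.295, 2.48 and 2.42 in replicates 1 to 4, a mean of 2.38 ± 0.09 (SD, n = 4, limma adjusted p = 3.19e-05, which ranged from 1.52e-07 to 0.000841 over the alternatives). It ranked 12 among all 20445 genes. All 4 samples were far above the pool and differed little from each other. The gene is covered by 3 probes on chromosome 7 (mm9), and they did not behave alike, so their sequences are printed 5′ to 3′ as the array's design gives them. Capitals mark the letters AGGTAAG, which resemble the consensus at the start of an intron. The probe of Cyp11a1 is added as the only other Cyp probe that holds these letters on either strand.
Cyp2e1 probe 1: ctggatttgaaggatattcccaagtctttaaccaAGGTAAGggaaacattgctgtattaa
Cyp2e1 probe 2: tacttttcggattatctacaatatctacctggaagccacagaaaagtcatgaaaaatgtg
Cyp2e1 probe 3: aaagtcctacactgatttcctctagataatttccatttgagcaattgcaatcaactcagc
Cyp11a1 probe 1: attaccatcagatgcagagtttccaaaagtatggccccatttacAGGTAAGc

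Probe 1 of Cyp2e1 lies at chr7:147949891-147949950 and had log2 ratios of 3.25, 3.27, 3.52 and 3.59 in replicates 1 to 4. Probe 2, at chr7:147955960-147956019, had 3.64, 3.51, 3.46 and 3.22. Probe 3, at chr7:147956492-147956551, had only 0.05, 0.11, 0.45 and 0.44, although 472 bases separate it from probe 2. The first and second probes thus stood at means of 3.41 and 3.46 and the third at 0.26, and the ranges of the third and of the other two did not overlap. The mean of 2.38 for the gene averages these unlike values, and the median over its probes was 3.30. Processed intensities show the same split on each array. At probe 1 the sample gave 5933, 5731, 6513 and 6446 and the pool 631, 613, 570 and 531. At probe 2 the sample gave 9035, 8185, 8952 and 9619 and the pool 737, 739, 813 and 1025. At probe 3 the sample gave 710, 798, 899 and 854 and the pool 699, 764, 658 and 625. All 3 probes were well above background in both channels on every array, none was saturated, and their GC content was 36.7%, 35% and 36.7%. The high signal was thus in the sample channel at the first 2 probes and not at the third. The 148 other probes within 1 Mb of the gene had a median of -0.004, the highest of them stood at 0.77, and Cyp2e1 minus that median was 2.38. Among all autosomal probes 25 had a mean above 3.

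The letters AGGTAAG occur on either strand in 596 of 43502 autosomal probes of 60 bases (1.37%), and the median ratio of those probes was 0.09. The Cyp11a1 probe that holds them, at chr9:57863060-57863111, had a mean of -0.48. A match is a description of the letters only. No mm9 annotation was used, so the probes are not placed in exons or introns.

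**Figure D2:**
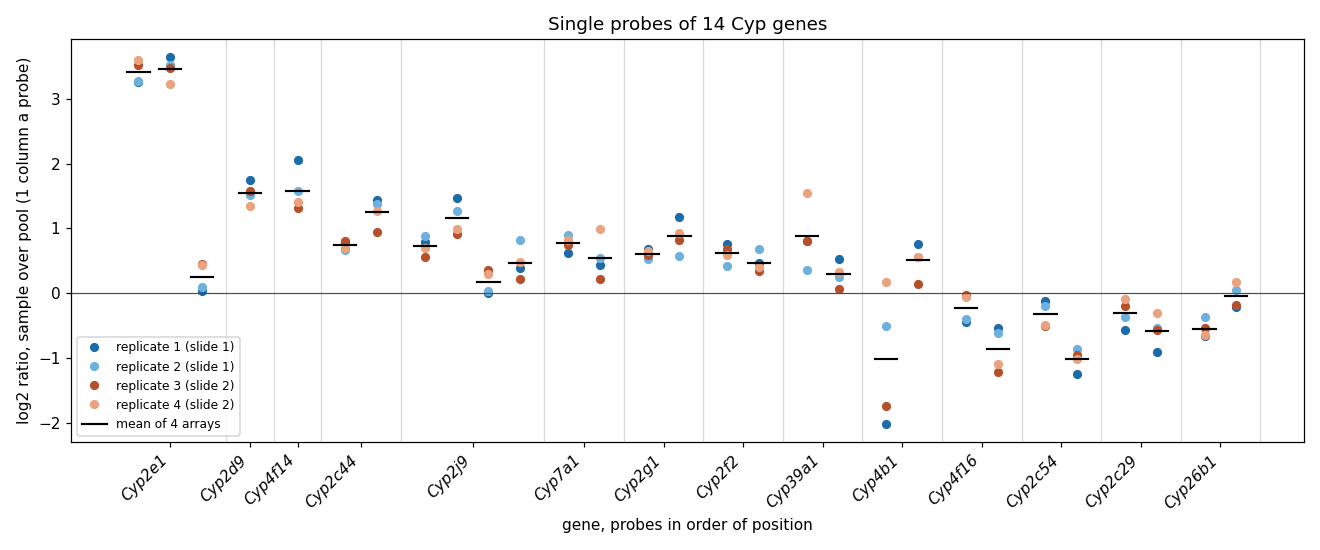
Log2 ratio of sample over pool for the single probes of 14 Cyp genes (x axis, probes in order of position), with 1 point for each of the 4 arrays and a bar for their mean. The first 2 probes of Cyp2e1 stand at 3.41 and 3.46 and the third at 0.26. Both probes of Cyp2c44 and of Cyp7a1 lie above 0 on every array, and those of Cyp4b1 lie on opposite sides of 0.

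Families 1 to 3 held 41 of the 73 genes, of which 7 were higher (17.1%), 3 lower (7.32%) and 31 not called, with a median of 0.11. Over all genes 16.1% were higher and 19.3% lower. Apart from Cyp2e1 the higher genes were Cyp2d9, Cyp2c44, Cyp2g1, Cyp2j9, Cyp2f2 and the pseudogene Cyp2c53-ps. Cyp2d9, a steroid hydroxylase with male-biased mRNA in mouse liver, had 1.74, 1.51, 1.58 and 1.34, a mean of 1.54 ± 0.17 (SD, n = 4, limma adjusted p = 0.000368). It rests on 1 probe, at chr15:82287210-82287266, where the sample gave processed intensities of 3260, 3080, 3069 and 2582 and the pool 989, 1113, 1030 and 1009. The other 6 Cyp2d genes, each with 1 probe, were not called and ranged from -0.22 for Cyp2d26 to 0.27 for Cyp2d22. Cyp2d22 was called at 0.36 minus its flank and at 0.27 with only probes well above background, and was 0.05 and not called with normexp background correction. The longest run of bases that probes of different Cyp genes shared was 17, between Cyp2d9 and Cyp2d34, and Cyp2d34 stood at -0.12. The high ratio in the Cyp2d cluster was thus seen at the Cyp2d9 probe alone of its 7 probes.

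Cyp2c44, listed in RefSeq as Cyp2c23 and known for making epoxides of arachidonic acid, had 1.11, 1.02, 0.88 and 0.99, a mean of 1.00 ± 0.09 (SD, n = 4, limma adjusted p = 0.000624). Its probes at chr19:44079509-44079568 and chr19:44089471-44089530 had means of 0.74 and 1.26, and both were above 0 on all 4 arrays. The 66 other probes within 1 Mb had a median of -0.08. Cyp2c44 lies apart from the main Cyp2c cluster, whose 10 genes spread over 1.14 Mb of chromosome 19 and whose probe mean was -0.12 ± 0.09 (SD, n = 4). In that cluster Cyp2c54 and Cyp2c29, which are hepatic members, were lower. Cyp2c54 had -0.67, -0.52, -0.73 and -0.75 (mean -0.67 ± 0.10, adjusted p = 0.00160), from probes at -0.32 and -1.01. Cyp2c29 had -0.74, -0.45, -0.38 and -0.19 (mean -0.44 ± 0.23, adjusted p = 0.0141), and with normexp background correction it was -0.21 and not called. Over the 11 Cyp2c genes 2 were higher and 2 lower (18.2% each, beside 16.1% and 19.3% of all genes), and 7 were not called. The shares were thus near the background, and the subfamily did not move as one.

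Cyp2g1, an enzyme of the olfactory mucosa, had 0.93, 0.55, 0.70 and 0.80 (mean 0.75 ± 0.16, limma adjusted p = 0.00172, n = 4). Cyp2f2, known for the bioactivation of naphthalene in lung and also present in liver, had 0.61, 0.55, 0.52 and 0.50 (mean 0.55 ± 0.05, adjusted p = 0.00188). Both lie in the chromosome 7 cluster from Cyp2s1 to Cyp2t4, and both of their probes lay above 0 on every array. With normexp background correction Cyp2g1 was 0.50 and kept its call, whereas the pseudogene Cyp2c53-ps, called at 0.34 ± 0.08 (adjusted p = 0.00898), fell below the size limit at 0.23. The 3 Cyp2b genes of that cluster, Cyp2b10, Cyp2b19 and Cyp2b23, were not called at 0.11, 0.08 and 0.28. Cyp2b23 was called without replicate 1, at 0.37, and with only probes well above background, at 0.28, and was 0.18 without replicate 2.

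Cyp2j9, a member of the arachidonic acid epoxygenase subfamily Cyp2j, had 0.66, 0.75, 0.52 and 0.62 (mean 0.64 ± 0.10, limma adjusted p = 0.00168, n = 4). Its 4 probes ranged from 0.18 to 1.16, so the size of the excess depended on the probe. The other 5 Cyp2j genes were not called and ranged from -0.02 for Cyp2j5 to 0.22 for Cyp2j6. Cyp2j6, Cyp2j8 and Cyp2r1 had an adjusted p under 0.05 with a mean under 0.25, namely 0.22, 0.19 and 0.23. Just outside on the other side, 6 genes passed 0.25 in size with an adjusted p of at least 0.05, and these were Cyp2b23, Cyp2d22, Cyp2c55, Cyp27a1, Cyp27b1 and Cyp4b1. Cyp2r1 was called without replicate 4, at 0.27, and it was 0.07 minus its flank. Cyp2c55, at -0.44, was called without replicate 2, at -0.59, was -0.24 without replicate 1, and turned to 0.08 with normexp background correction, neither of these called. The sample signal of its probes stood well above background on 0 and 2 of the 4 arrays.

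Cyp1b1, which activates aromatic hydrocarbons and is expressed mainly outside the liver, had the lowest ratio of the family. It had -1.07, -0.46, -0.77 and -0.44, a mean of -0.68 ± 0.30 (SD, n = 4, limma adjusted p = 0.00603), from 1 probe at chr17:80114170-80114221. All 4 samples were below the pool. The GC content of that probe was 44.2%, and probes above 40% GC were lower in general. The median ratio of all autosomal probes above 40% GC was -0.23, against 0.01 for those at or below 40%. Among Cyp probes the medians were -0.10 for 18 probes and 0.12 for 116. After the median of probes of like GC content was taken off, Cyp1b1 stood at -0.40 and kept its call, as it did at -0.40 with normexp background correction. The GC correction was chosen after seeing the data.

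Cyp1a1, Cyp1a2 and the Cyp3a genes were not called. Cyp1a2, which clears caffeine, had 0.05, 0.02, -0.37 and -0.01 (mean -0.08 ± 0.20, limma adjusted p = 0.518, n = 4). Cyp1a1, induced through the aryl hydrocarbon receptor, had -0.73, -0.22, 0.60 and -0.11 (mean -0.12 ± 0.55, adjusted p = 0.665). Cyp3a11, a main hepatic Cyp3a enzyme induced through the pregnane X receptor, had 0.03, 0.16, -0.08 and 0.21 (mean 0.08 ± 0.14, adjusted p = 0.421). None of these sets of 4 values lay on one side of 0. The 4 Cyp3a genes spanned -0.09 for Cyp3a16 to 0.17 for Cyp3a57, and the smallest limma adjusted p among them was 0.129.

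Family 4 held 14 genes, with a median of 0.20. Of these 7 were higher (50%, beside 16.1% of all genes), 1 was lower (7.14%, beside 19.3%) and 6 were not called. With the flanking median taken off, only Cyp4f14, Cyp4a14 and Cyp4f39 of the 7 were still called higher. Cyp4x1, Cyp4a10, Cyp4a29-ps and Cyp4v3 were not, and 15.1% of all genes were called higher in that setting. Cyp4f14, a hydroxylase of leukotriene B4 and of vitamin E tails, had 2.05, 1.58, 1.31 and 1.41, a mean of 1.58 ± 0.33 (SD, n = 4, limma adjusted p = 0.000887). It rests on 1 probe, at chr17:33051513-33051566, where the sample gave processed intensities of 644, 631, 545 and 675 and the pool 158, 218, 220 and 253. All 4 samples were above the pool, and the pool signal was well above background on 3 of 4 arrays. With normexp background correction the mean was 0.98 and the call was kept. The other 7 Cyp4f genes included Cyp4f39 at 0.28, which was called, and Cyp4f16, which was lower. Cyp4f16 had -0.49, -0.50, -0.62 and -0.57 (mean -0.54 ± 0.06, adjusted p = 0.00201), from probes at -0.23 and -0.86. Neighbours in 1 cluster thus stood on opposite sides of the pool. Cyp4f39 was at 0.24 and not called without replicate 2 or with GC correction, and at 0.11 with normexp correction.

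The 3 Cyp4a genes measured were all called higher, beside 16.1% of all genes. Cyp4a10 and Cyp4a14 encode omega-hydroxylases of fatty acids under the control of the receptor PPAR alpha. Cyp4a14 had 0.46, 0.56, 0.48 and 0.41 (mean 0.48 ± 0.06, limma adjusted p = 0.00275, n = 4). Cyp4a10 had 0.49, 0.35, 0.05 and 0.47 (mean 0.34 ± 0.20, adjusted p = 0.0254). Cyp4a29-ps, named as a pseudogene on the array and listed in RefSeq as Cyp4a29, had 0.42, 0.40, 0.30 and 0.15 (mean 0.32 ± 0.12, adjusted p = 0.0156). The 88 probes outside Cyp genes within 1 Mb of the locus from Cyp4x1 to Cyp4b1 had a median of 0.18, with single probes from -1.04 to 1.45. For a single gene the flanking median was taken over all other probes within 1 Mb, those of neighbouring Cyp genes included. With that median taken off, Cyp4a14 kept its call at 0.25, and Cyp4a10 at 0.11 and Cyp4a29-ps at 0.10 did not. Cyp4a10 also lost its call without replicate 1, at 0.29, replicate 2, at 0.34, or replicate 4, at 0.30, and Cyp4a29-ps without replicate 1, at 0.28, or replicate 2, at 0.29. With normexp background correction Cyp4a10 was 0.17 and Cyp4a29-ps 0.22, neither called.

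Cyp4x1, a brain-enriched member at the edge of the same locus, had 0.23, 0.37, 0.29 and 0.68 (mean 0.39 ± 0.20, limma adjusted p = 0.0155, n = 4), and 0.24 without a call once the flank was taken off. Cyp4b1, a lung enzyme at the other edge, had a mean of -0.25 ± 0.55 and was not called (adjusted p = 0.333). Its probe at chr4:115301436-115301490 had -2.003, -0.50, -1.74 and 0.18, and the sample channel there was well above background on 1 of 4 arrays. Its probe at chr4:115318877-115318935 had 0.76, 0.57, 0.14 and 0.57 and was well above background throughout. With that probe alone the gene was at 0.51 and called higher, so its direction depended on the filter on dim probes. Cyp4v3, a fatty acid hydroxylase on chromosome 8, was called at 0.25 ± 0.12 (adjusted p = 0.0322), while 45 other probes within 1 Mb had a median of 0.24. Cyp4v3 minus the flank was 0.01. It also lost its call without replicate 1, at 0.25, replicate 2, at 0.22, or replicate 3, at 0.23, with GC correction, at 0.20, in the deposited log2 table, at 0.18, and at 0.22 with normexp correction or centring on the mode.

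**Figure D3:**
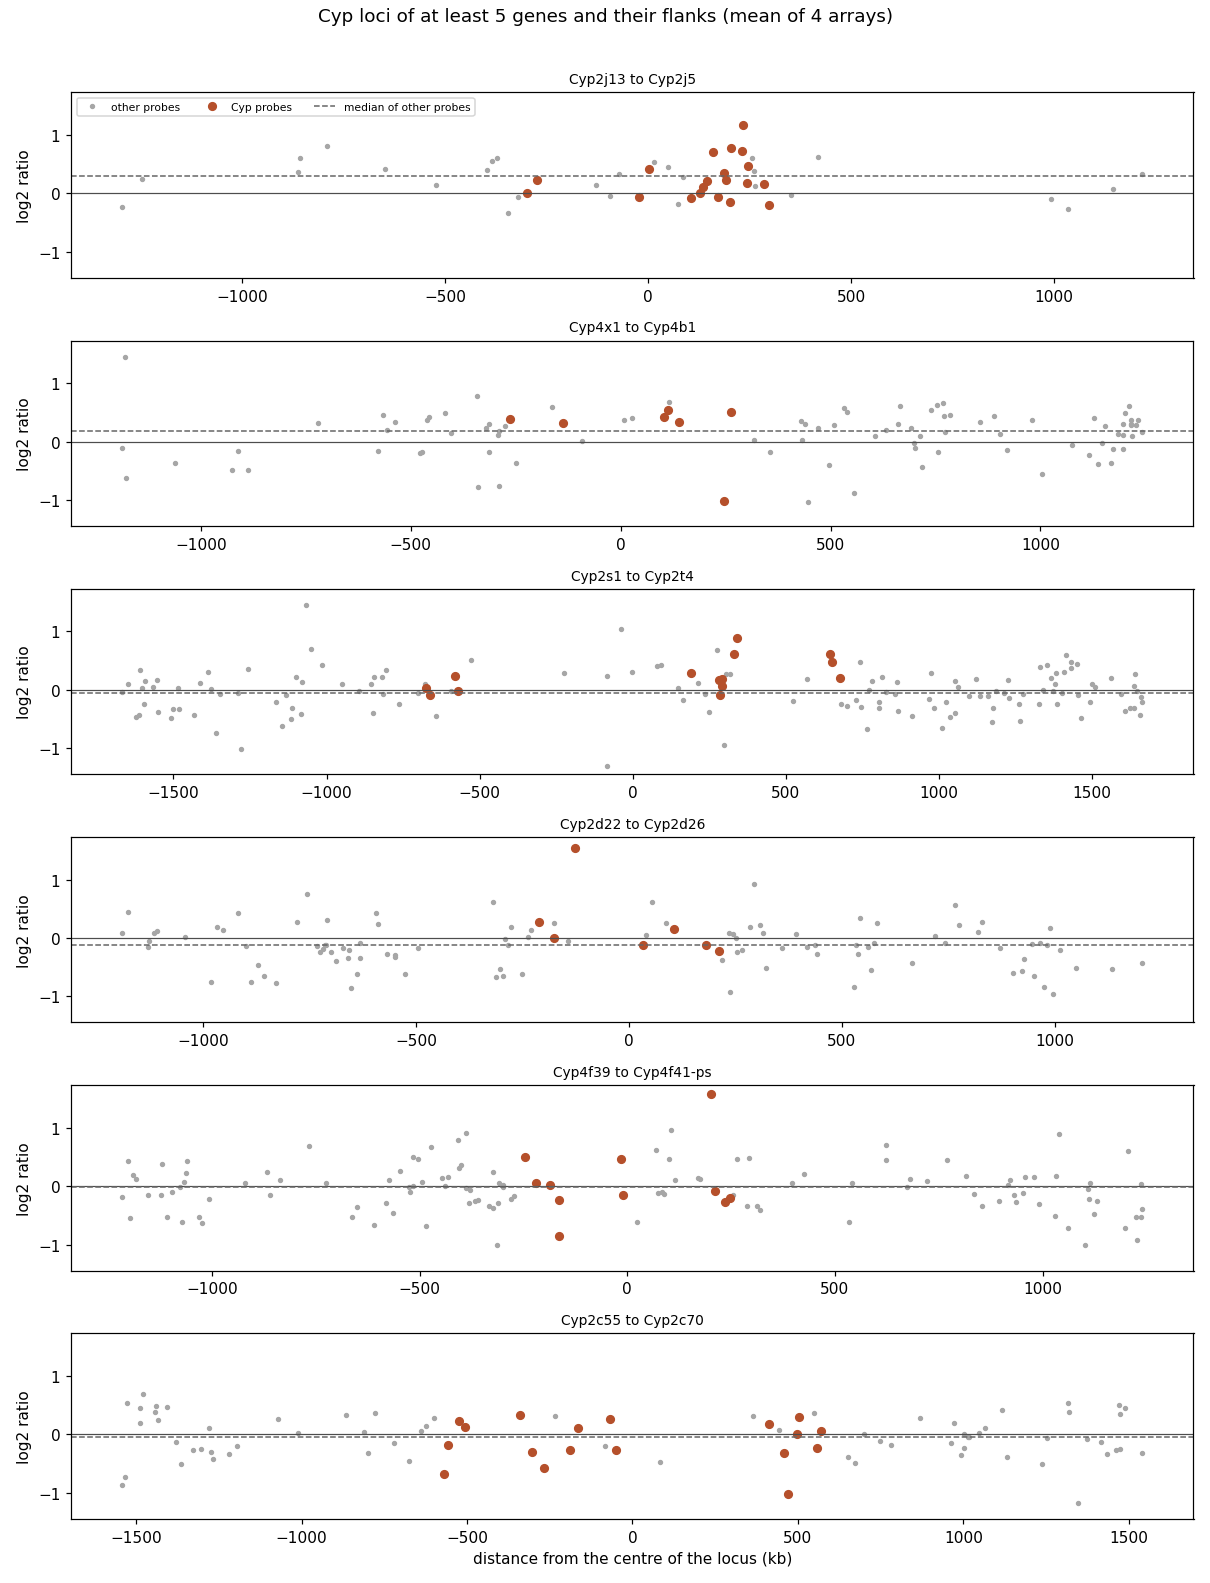
Mean log2 ratio over 4 arrays of single probes (y axis) against the distance in kb from the centre of each Cyp locus of at least 5 genes (x axis), for Cyp probes and for the other probes within 1 Mb, with a dashed line at the median of the other probes. Cyp probes of the chromosome 4 Cyp2j locus average 0.26 where the other probes have a median of 0.27 (taken per array and averaged), and single Cyp probes such as that of Cyp2d9 at 1.54 stand above their neighbours.

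The clusters were next set against their surroundings. The 20 probes of the 6 Cyp2j genes on chromosome 4 averaged 0.26 ± 0.02 (SD, n = 4 arrays) and the 28 other probes within 1 Mb had a median of 0.27, a difference of -0.01 ± 0.08. At the locus from Cyp4x1 to Cyp4b1 the values were 0.22 and 0.18, a difference of 0.03 ± 0.22. By these means the 2 clusters lay no higher than their flanks within the spread of the arrays. The probe medians were 0.19 for the Cyp2j locus and 0.39 for the 7 Cyp probes from Cyp4x1 to Cyp4b1, the latter above its flank. The mean of those 7 includes the Cyp4b1 probe at -1.02, where the sample channel was well above background on 1 of 4 arrays. The chromosome 7 cluster from Cyp2s1 to Cyp2t4 averaged 0.25 ± 0.04 over 14 probes against a flank of -0.04, a difference of 0.29 ± 0.07. The median of its 14 probes was 0.19, and single probes ran from -0.10 to 0.88, the highest in Cyp2g1. The Cyp2d cluster on chromosome 15 averaged 0.22 ± 0.19 against -0.13, but the median of its 7 probes was -0.003. The Cyp4f cluster on chromosome 17 averaged 0.08 ± 0.07 against -0.02, and the Cyp2c cluster -0.12 ± 0.09 against -0.01. Their probe medians were both -0.09. These differences were not tested as loci. Gene by gene, the flank also includes the probes of neighbouring Cyp genes. With that flanking median taken off, limma called 16 Cyp genes higher (21.9%, beside 15.1 percent of 20416 genes) and 6 lower (8.22%, beside 15.7 percent). In either direction these were 22 of 73 (30.1%), beside 30.7 percent of all genes, so the total was again at the background.

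The bile acid and sterol group held 7 genes, with a median of 0.15. Of these 2 were higher (28.6%, beside 16.1% of all genes), 1 was lower (14.3%, beside 19.3%) and 4 were not called. Cyp7a1, the rate-limiting enzyme of bile acid synthesis, had 0.53, 0.72, 0.48 and 0.91 (mean 0.66 ± 0.19, limma adjusted p = 0.00300, n = 4). Its probes at chr4:6199736-6199795 and chr4:6202614-6202673 had means of 0.77 and 0.55, and 27 other probes within 1 Mb had a median of 0.06. Every array put both probes above the pool. Cyp39a1, the 24-hydroxycholesterol 7-alpha-hydroxylase, had 0.67, 0.31, 0.44 and 0.94 (mean 0.59 ± 0.28, adjusted p = 0.00831). Of its 2 probes the one at 0.88 was dim in both channels on every array, and the other alone gave 0.29 and kept the call. With normexp background correction Cyp39a1 was 0.36.

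The other genes of the group lay closer to 0. Cyp7b1, the oxysterol 7-alpha-hydroxylase, had 0.10, 0.02, 0.43 and 0.36 (mean 0.23 ± 0.20, limma adjusted p = 0.0858, n = 4). It was called with normexp background correction, at 0.28, with the median over probes, at 0.28, with the deposited log2 table, at 0.35, and with GC correction, at 0.28. Minus its flank it was 0.09 and with centring on the mode 0.20, neither of them called, and on slide 1 alone it was 0.06. Cyp51, the lanosterol demethylase of cholesterol synthesis, stood at 0.15 (adjusted p = 0.103), and Cyp8b1, the sterol 12-alpha-hydroxylase that sets cholic acid, at -0.02 (adjusted p = 0.911). Cyp27a1, which opens the acidic pathway of bile acid synthesis, had -0.41, -0.40, 0.02 and -0.26 (mean -0.26, adjusted p = 0.0594), and its 96 flanking probes had a median of -0.30. Cyp27a1 was called without replicate 3, at -0.35, and stood at 0.04 minus its flank. Cyp46a1, the cholesterol 24-hydroxylase of neurons, was called lower at -0.26 ± 0.05 (adjusted p = 0.0186). That call was lost at -0.17 with GC correction or with normexp correction, at -0.21 minus the flank, at -0.25 in the deposited log2 table, at -0.24 without replicate 2 or replicate 3, and at -0.26 without replicate 4.

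Of the steroid hormone genes 5 of 6 were measured, with a median of -0.16. Among them 1 was higher (20%, beside 16.1% of all genes), 2 were lower (40%, beside 19.3%) and 2 were not called. On no array did the sample signal of the 1 probe of Cyp17a1, the 17-alpha-hydroxylase of adrenal and gonad, stand well above background, and the pool signal did so on 1 array. Its processed log2 ratios of 1.81, -0.10, 1.104 and 0.74 (mean 0.89 ± 0.79, SD, n = 4, limma adjusted p = 0.0416) are those of dim signals and are not read as a fold, although the gene is counted among the 18 higher ones. The gene was not called at 0.58, 0.82 and 0.94 when replicate 1, 3 or 4 was left out, nor at 0.83 with GC correction, and with normexp correction it was 0.50 and called. Cyp11a1, which cleaves the cholesterol side chain, had -0.32, -0.39, -0.23 and -0.31 (mean -0.31 ± 0.06, adjusted p = 0.0102). Cyp21a1, the steroid 21-hydroxylase, had -0.30, -0.28, -0.31 and -0.33 (mean -0.30 ± 0.02, adjusted p = 0.00924). The mean GC content of their probes was 42.7% and 43.4%, and with GC correction they stood at -0.09 and -0.08 and were not called. Minus the flank they were -0.23 and -0.11, also not called. Cyp11b2, aldosterone synthase, was 0.19 (adjusted p = 0.0623) and 0.48 minus its flank, where it was called, and Cyp19a1, aromatase, was -0.16 (adjusted p = 0.119) and -0.26 minus its flank, where it was called lower.

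The vitamin D and retinoic acid group held 5 genes, with a median of -0.29. Among them 1 was higher (20%, beside 16.1% of all genes), 2 were lower (40%, beside 19.3%) and 2 were not called. Cyp26a1 and Cyp26c1, which both degrade retinoic acid, lie side by side on chromosome 19 and had opposite signs. Cyp26c1, at chr19:37766931-37766990, had -0.51, -0.47, -0.49 and -0.53 (mean -0.50 ± 0.02, limma adjusted p = 0.00220, n = 4). Cyp26a1, at chr19:37775995-37776054, had 0.41, -0.01, 0.47 and 0.42 (mean 0.32 ± 0.23, adjusted p = 0.0381). Each has 1 probe, and the call of Cyp26a1 was lost without replicate 1, at 0.29, replicate 3, at 0.27, or replicate 4, at 0.29, with centring on the mode, at 0.29, and in the deposited log2 table, at 0.24. On slide 1 alone Cyp26a1 was 0.20. Cyp26b1, the third of these hydroxylases, was lower at -0.29 ± 0.12 (adjusted p = 0.0210), and not called at -0.24 without replicate 1, at -0.27 without replicate 3, at -0.23 with normexp correction or at -0.19 minus its flank. Cyp27b1, the kidney enzyme that makes active vitamin D, was -0.31 (adjusted p = 0.0532) and not called. It was called without replicate 3, at -0.43, with normexp correction, at -0.29, and with centring on the mode, at -0.34. With only probes well above background it stayed at -0.31 and was called. Minus its flank it was -0.14 and not called. Cyp24a1, which inactivates vitamin D, was -0.07 (adjusted p = 0.477). Cyp20a1, an orphan P450 with no settled substrate, had 5 probes and a mean of 0.09 (adjusted p = 0.374).

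The genes were also grouped by where their mRNA is mainly found, from textbook knowledge. These lists were drawn up with earlier results of these data known, so they are a description and not independent support. Of 33 genes listed as abundant in liver 26 were measured, with 9 higher (34.6%, beside 16.1% of all genes), 2 lower (7.69%, beside 19.3%) and a median of 0.16. Of 20 genes listed for other organs 18 were measured, with 2 higher (11.1%), 6 lower (33.3%) and a median of -0.11. The 2 higher genes of other organs were Cyp2g1 and Cyp4x1, and the 29 genes in neither list had 7 higher (24.1%), 1 lower (3.45%) and a median of 0.16. The medians of the liver list and of the genes in neither list were thus alike. On slide 1 the liver and other-organ medians were 0.13 and -0.12, and on slide 2 they were 0.08 and -0.12. The liver list had a median of 0.16, 0.15, 0.13 and 0.06 on replicates 1 to 4. The difference between the lists was not tested, and the calls behind it moved with the setting. Of the lower other-organ genes, Cyp11a1, Cyp21a1 and Cyp46a1 lost their call both with GC correction and minus the flank. Cyp26b1 also lost its call minus the flank, where Cyp19a1 was called lower and Cyp11b2 higher. Cyp4x1, and Cyp4a10 and Cyp4v3 of the liver list, lost their higher calls minus the flank, and Cyp2d22 of the liver list was called higher. The median GC content of the members was 36.7% in the liver list and 38.3% in the other-organ list, and with GC correction the list medians were 0.17 and -0.07.

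**Figure D4:**
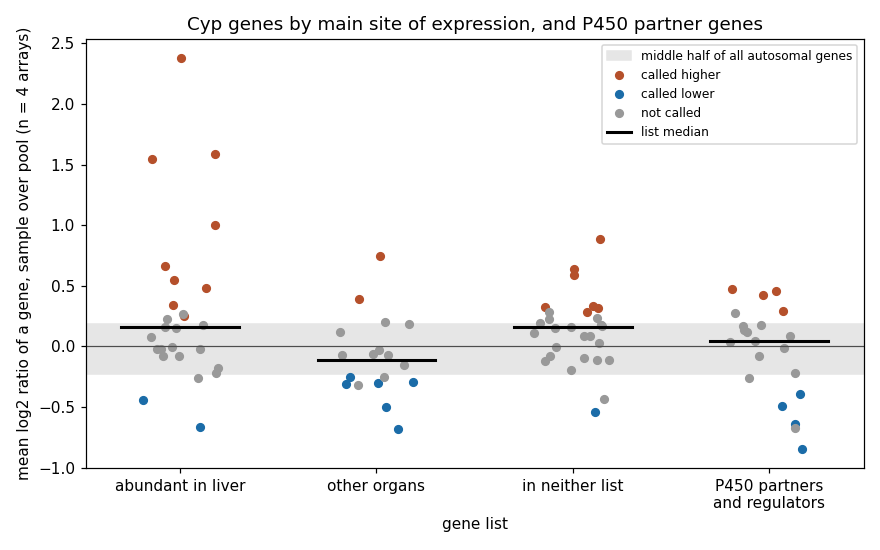
Mean log2 ratio over 4 arrays (y axis) of each gene in 4 lists (x axis: Cyp genes abundant in liver, Cyp genes of other organs, Cyp genes in neither list, and P450 partner and regulator genes), coloured by call, with a bar for the list median and a grey band between the quartiles of all autosomal genes. The list medians are 0.16, -0.11, 0.16 and 0.05.

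Of the Cyp genes with sex-biased mRNA in mouse liver, Cyp2d9 and Cyp7b1 of the 4 male-biased genes and Cyp17a1 and Cyp3a16 of the 8 female-biased genes were measured. The log2 ratios of Cyp2d9, Cyp7b1 and Cyp3a16 were 1.54, 0.23 and -0.09, and Cyp17a1 was dim in the sample channel on every array. The sex of samples and pool is not in the labels. On the X chromosome the samples lay below the pool on all 4 arrays, at a median of -0.86. The part of sex in the values of these genes was not tested.

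Partner and regulator genes of the P450 system were taken from a list of 23, of which 21 were measured. Of these 4 were higher and 4 lower (19.05% each, beside 16.1% and 19.3% of all genes) and 13 were not called, with a median of 0.05. The shares were thus near the background, and the values that follow describe single genes. The higher ones included Ephx1, the microsomal epoxide hydrolase, at 0.47 ± 0.07 (SD, n = 4, limma adjusted p = 0.00303), and Fdx1, the ferredoxin of mitochondrial P450 enzymes, at 0.46 ± 0.09 (adjusted p = 0.00382). Cyb5b, an outer-membrane cytochrome b5, had 0.43 ± 0.07 (adjusted p = 0.00397). Among the lower ones Fdxr, the reductase of that ferredoxin, had -1.06, -0.89, -0.76 and -0.65 (mean -0.84 ± 0.18, adjusted p = 0.00149) from 1 probe, and -1.31 in the deposited log2 table. Alas1, which starts haem synthesis, had -0.64 ± 0.19 (adjusted p = 0.00322), and Ptgis, prostacyclin synthase and itself a P450 enzyme, had -0.49 ± 0.05 (adjusted p = 0.00253). With normexp background correction Ephx1 was 0.27 and Fdx1 0.30, and minus the flank Alas1 was -0.38, all still called. Ferredoxin and its reductase therefore stood on opposite sides of the pool. Por, the reductase of all microsomal P450 enzymes, had -0.75, -0.37, 0.15 and -0.08 (mean -0.26 ± 0.39, adjusted p = 0.189) and was named after its value was seen.

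Probes of a gene often disagreed. Of 44 Cyp genes with at least 2 probes, 19 had probe means of both signs (43.2%, beside 56.5% of all such genes). The median range between probes of a gene was 0.40 in the Cyp genes and 0.44 in all genes. High single probes were 6 of 134 in the Cyp genes (4.48% above 1, beside 0.741% of all autosomal probes), and low ones 2 of 134 (1.49% below -1, beside 0.916%). The 6 probes were 2 of Cyp2e1 and 1 each of Cyp2d9, Cyp4f14, Cyp2c44 and Cyp2j9. The 2 low ones belonged to Cyp2c54 and Cyp4b1.

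Between slides, limma found 0 of 73 Cyp genes and 0 percent of all 20445 genes different at an adjusted p under 0.05. At an unadjusted p under 0.05 these were 3 Cyp genes, Cyp2d22, Cyp7b1 and Cyp2c65, and 2207 of all genes (10.8%). The smallest adjusted p of a Cyp gene was 0.439. With 2 arrays on each slide, a difference between slides cannot be told apart from one between samples.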

How the data were processed

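Genomic DNA of 4 samples and of 1 pool was measured on 2-colour Agilent arrays. Per the file headers, the deposited intensity values are processed signals of Agilent Feature Extraction 10.10.1.1, after background subtraction, detrending and linear dye normalisation. Dim spots carry surrogate values. The deposited log10 ratio column served as a check and matched the ratios taken here within 1.36e-06 on the log2 scale, on spots without surrogates. The deposited log2 table was an alternative. Each of its columns correlated at 0.909 to 0.919 with its own array's ratios, at slopes of 0.985 to 1.08, and at 0.668 or less with those of other arrays. Its column medians were -0.035, 0.029, 0.052 and 0.005. These values give its direction and scale, and how it was normalised within arrays is unknown. Probe positions are on mm9, per the file headers.

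Control and outlier-marked spots were dropped from the log2 ratios of processed Cy5 to Cy3, repeated spots were averaged, and the median over 52385 autosomal probes was subtracted on every array, with neither loess nor quantile normalisation. A gene was the mean of its probes. limma 3.58.1 (lmFit, eBayes) in R 4.3.3 tested 20445 autosomal genes, and the script was tested on simulated data. The number of arrays limits the precision, and a probe's own dye effect is not removed without swapped dyes. Of the 73 names, 71 are RefSeq symbols and 2 are synonyms (assembly GRCm38, used for names only). Probe sequences are those of the array files.

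Members, lists and alternatives were chosen with earlier results of these data known. The genes named are the 8 highest and 8 lowest, the extremes of each subfamily of at least 3 members, all sterol, steroid, vitamin D and retinoic acid genes, Cyp1a1, Cyp1a2, Cyp1b1, Cyp2e1, Cyp3a11, sex-biased genes, 6 partners and both targeted genes. Other called members and genes near the threshold were named after their values were seen. Alternatives were normexp background correction (offset 50), only probes well above background, centring on the mode, outlier-marked spots kept, the median over probes, at least 2 probes, the deposited table, subtraction of the median of other genes' probes within 1 Mb, slide as a random block, each slide alone, each replicate left out, a size limit of 0.5 and, added after seeing the data, GC correction in bins of 2 percentage points.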

Additional observations from a re-analysis of the deposited data

Results flagged for a closer look

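In 3 of the 73 genes 1 array stood apart from the other 3, with a gap to its nearest neighbour, as a share of the whole range, above Dixon's critical value for 4 values. Chance gives such a gap in about 1 in 20 groups of 4, or 3.7 of 73 genes. Cyp26a1 had a log2 ratio of -0.01426 in replicate 2 and 0.4101 to 0.4699 in the others. Cyp4f39 had 0.3943 in replicate 2 and 0.2349 to 0.2511 in the others. Cyp1a2 had -0.3688 in replicate 3 and -0.008042 to 0.0517 in the others.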

How the results depend on the processing

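Of the 27 called Cyp genes, 13 kept their call in each of the 15 tested alternatives that measured them. These were Cyp2e1, Cyp2d9, Cyp4f14, Cyp2c44, Cyp2g1, Cyp7a1, Cyp2j9, Cyp39a1 and Cyp2f2 among the higher genes, and Cyp1b1, Cyp26c1, Cyp2c54 and Cyp4f16 among the lower. The other 14 lost it in at least 1 alternative. The share of all called genes that kept their call is not given here. Genes of 1 probe were not measured with at least 2 probes, and Cyp4f14 was also not measured with only probes well above background. Cyp39a1 passed the size limit of 0.5 with a probe that was dim in both channels on every array, and its other probe stood at 0.29. Cyp4b1 turned from below to above the pool, at 0.5101, with only probes well above background, since its dim probe was then dropped. With a size limit of 0.5, 10 of 73 Cyp genes were higher and 4 lower, and 2 of 21 partner genes were called. At that limit 2383 of 20445 genes were called in either direction. With at least 2 probes a gene, fewer genes were tested. Then 10 of 44 Cyp genes were higher and 8 lower, and 3757 of 11768 genes were called in either direction. The median Cyp gene was 0.0520 with normexp correction, 0.1221 with only probes well above background, 0.0566 with centring on the mode, 0.1167 with the median over probes, 0.0384 minus the flank, 0.1196 on slide 1 and 0.0656 on slide 2. The median of the liver list was 0.0953 minus the flank and 0.0811 on slide 2. For these shifts the cause was not tested. Leaving out 1 replicate gave 14 to 16 higher and 8 to 9 lower of the 73 Cyp genes, and 7 to 8 of the 21 partner genes. In either direction 5464 to 5974 of the 20445 genes were then called. The Cyp median was then 0.0705 to 0.1164, the liver-list median 0.135 to 0.1558 and the other-organ median -0.161 to -0.0982. Shares of all genes by direction are not given here for these alternatives. The medians of the lists kept their signs in all alternatives. Slide as a random block changed no call of a Cyp gene. No paired analysis was possible because there is 1 group of samples and each array holds the same pool. Dim signal limits Cyp17a1, Cyp2c37 and Cyp2c39, whose probes were all dim in the sample channel.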
